A study of Mus musculus with 28 samples.

Results

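The genes described here are 6 genes that mark astrocytes or are strongly expressed by them, Gfap, Glul, Aldoc, Apoe, Clu and Sparcl1, together with Dio2. They were taken by name: every probe set to which the platform annotation gives 1 of these 7 symbols and no other was included, so the rule itself uses no measured value, though the 7 genes were picked with earlier results of these data known. This gave 11 probe sets of 7 genes, out of 8251 genes with such a probe set on the array. Of the 11 probe sets, 10 passed the filter for testing, a signal above the array's own median in at least 3 of the 28 arrays. The other, the dim probe set of Apoe, was above the median in 0 arrays, with signals of 1.27 to 26.1 in linear units, and it was not tested.

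Whole-brain total RNA was measured in 28 C57BL/6J mice on Affymetrix U74Av2 arrays, each mouse on its own chip, and values are given as log2 of the deposited signal intensity. The groups were 5 seized and 5 untreated mice heterozygous for the L250T allele of the alpha7 nicotinic receptor subunit, written α7 +/T, 4 seized and 5 untreated mice without the beta4 subunit, written β4 -/-, and 3 seized and 6 untreated wild-type mice. Seized mice were taken 1 hour after a seizure induced by nicotine. The dose differed between the genotypes, to give seizures of like score, so genotype and dose cannot be told apart in seized mice. The untreated mice are not described as having received an injection of vehicle. Both are germline mutations, and the whole brain mixes all regions and cell types, so fewer cells of a type and less RNA per cell cannot be told apart. Seized mice were 7 or 8 weeks old. Untreated mice were 6 to 9 weeks old, and 8 of the 16 were 6 weeks old, 4 of them α7 +/T, 1 of them β4 -/- and 3 of them wild-type.

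Astrocytes are the glial cells that take up glutamate from synapses, pass glutamine back to neurons, supply lipid to other brain cells and cover blood vessels with their endfeet. Dio2 encodes type 2 deiodinase, which turns the prohormone thyroxine into the active thyroid hormone triiodothyronine. In the brain it is made by astrocytes and by tanycytes, the specialised ependymal cells of the third ventricle, so neurons depend on these cells for much of their active hormone. In brown fat Dio2 is a classical target of cAMP signalling.

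The Dio2 promoter is shown because it holds a cAMP response element, the kind of element through which neuronal activity induces Fos and other early genes. The window runs from 250 bases before the annotated start to 50 after it, in RefSeq's GRCm38.p6 at chr12:90738989-90739288 on the minus strand. Capitals mark an 8-base cAMP response element, TGACGTCA, whose first base lies 95 bases before the start, and a TATAAA box 30 bases before it.
Dio2: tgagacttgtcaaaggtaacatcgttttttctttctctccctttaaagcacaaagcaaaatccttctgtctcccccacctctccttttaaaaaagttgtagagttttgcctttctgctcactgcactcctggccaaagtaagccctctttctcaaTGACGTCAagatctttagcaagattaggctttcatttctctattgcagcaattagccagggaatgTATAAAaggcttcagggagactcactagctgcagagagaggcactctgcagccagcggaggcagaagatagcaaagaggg
TGACGTCA was searched on both strands and is its own reverse complement. It was found in 588 of 32851 promoter windows of this length, or 1.79%, and TATAAA in 13.6%. Of the 7 genes, 5 had a window in the table, and among these 5 only that of Dio2 held TGACGTCA.

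The arrays fell into 2 classes that touch several of the results below. In 9 arrays the Gapdh control set at the 3′ end over that at the 5′ end had a log2 ratio of -0.48 to 0.096 (low-ratio arrays), and in 19 arrays it was 1.13 to 2.57 (high-ratio arrays). Low-ratio arrays were 3 of 5 seized and 2 of 5 untreated α7 +/T mice, and 2 of 4 seized and 2 of 5 untreated β4 -/- mice, while all 9 wild-type mice had high-ratio arrays. Across the tested probe sets 52.1% differed between the classes within groups (limma, adjusted p under 0.05). As a check of the treatment, the immediate early gene Fos was higher by 1.99 ± 0.22 (SE) on the log2 scale in seized mice over the 3 genotypes (limma adjusted p = 5.2e-06). Chrna7, the gene of the alpha7 subunit, differed by 0.19 ± 0.38 between untreated α7 +/T and wild-type mice, which checks nothing because L250T changes the protein and not, by design, the amount of its RNA.

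The first question was whether the 7 genes changed within 1 hour of a seizure. Over the 3 genotypes, 0 of the 10 probe sets passed (limma, Benjamini-Hochberg adjusted p under 0.05 over 7350 probe sets), where 0.408% of all probe sets passed. An unadjusted p under 0.05 was found for 1 of the 10 and for 635 of the 7350. The median difference of the 7 genes, each by its brightest probe set, was 0.13 on the log2 scale, against a median of 0.0081 over 5599 genes. The differences ran from -0.33 ± 0.14 for Apoe to 0.31 ± 0.16 for the brighter Glul set (SE, 12 seized and 16 untreated mice). Each genotype taken alone also gave 0 calls among the 10, with 2 at an unadjusted p under 0.05 in α7 +/T mice, where 1350 of the 7350 had one, and 0 in the others, where 128 did in β4 -/- and 312 in wild-type mice. Of all probe sets 2.8% passed in α7 +/T mice, 1.71% higher and 1.09% lower, 0.0136% in β4 -/- mice and 0.0544% in wild-type mice. The test of whether the seizure difference itself varied with genotype gave 0 calls, with 1 at an unadjusted p under 0.05 (Glul) against 563 of the 7350, and passed for 0.0272% of all probe sets.

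**Figure D1:**
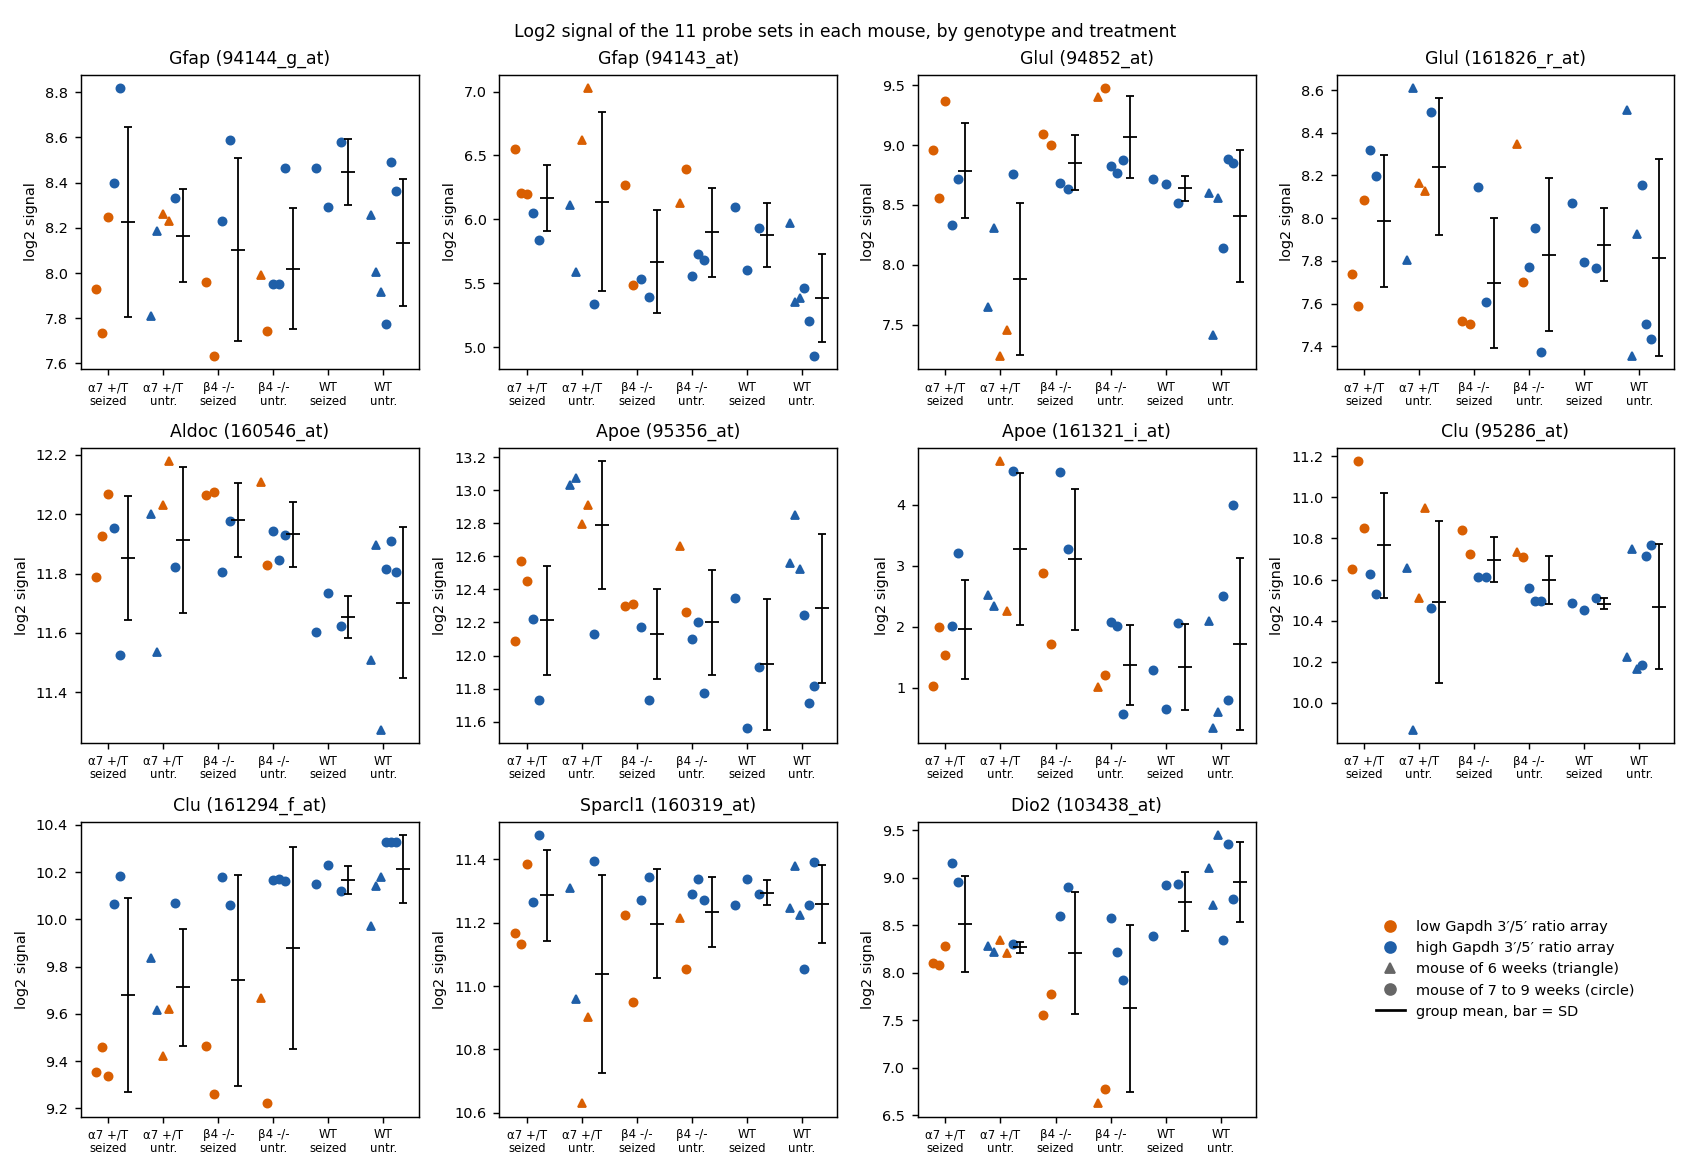
Log2 signal of the 11 probe sets, 1 panel each, with 1 point per mouse in the 6 genotype and treatment groups; colour gives the array class, triangles are mice of 6 weeks and the bars are group means with SD. Dio2 was lowest in the 2 untreated β4 -/- mice with low-ratio arrays, at 6.63 and 6.78, and the triangles of Apoe lie at 12.53 or above.

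Dio2 was measured by 1 probe set, whose median signal was 325 in linear units, at the 85.5th percentile of its arrays. Dio2 was 8.11, 8.08, 8.28, 9.15 and 8.96 in seized α7 +/T mice, against 8.28, 8.22, 8.34, 8.21 and 8.30 in untreated α7 +/T mice. It was 7.56, 7.78, 8.60 and 8.90 in seized β4 -/- mice, against 6.63, 6.78, 8.58, 8.22 and 7.92 in untreated β4 -/- mice. It was 8.39, 8.92 and 8.93 in seized wild-type mice, against a lowest value of 8.35, a median of 8.94 and a highest of 9.45 in untreated wild-type mice. Within each genotype the seized and untreated ranges overlapped. The 2 lowest seized and the 2 lowest untreated β4 -/- mice, and the 3 lowest seized α7 +/T mice, had low-ratio arrays. Untreated α7 +/T mice did not divide in this way, with 8.34 and 8.21 in low-ratio arrays and 8.28, 8.22 and 8.30 in high-ratio arrays.

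The seizure difference of Dio2 was 0.25 ± 0.32 in α7 +/T mice, 0.59 ± 0.34 in β4 -/- mice and -0.21 ± 0.35 in wild-type mice, and 0.21 ± 0.19 over the 3 (limma adjusted p = 0.83, 95% interval -0.19 to 0.61). With array class as a covariate the average was 0.29 ± 0.13 (limma adjusted p = 0.32). In high-ratio arrays alone the Dio2 difference was 0.79 ± 0.27 in α7 +/T mice, where the 2 seized mice, at 9.15 and 8.96, lay above the 3 untreated mice, at 8.28, 8.22 and 8.30 (limma adjusted p = 0.16). In low-ratio arrays alone it was -0.12 ± 0.16 in α7 +/T mice and 0.97 ± 0.18 in β4 -/- mice (limma adjusted p = 0.17). No setting gave a called seizure difference for Dio2, and in α7 +/T mice its sign differed between the array classes.

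Between genotypes Dio2 had the largest difference of any member, and it was not called. Among the 10 probe sets 0 passed between untreated β4 -/- and wild-type mice, where 0.0136% of all did, with 2 of the 10 and 951 of all at an unadjusted p under 0.05. In untreated β4 -/- mice Dio2 averaged 7.62 ± 0.87 (SD, n = 5), against 8.96 ± 0.42 in untreated wild-type mice (SD, n = 6), a difference of -1.33 ± 0.30, or 2.52-fold lower in the mutants, with all 5 below the wild-type mean (limma adjusted p = 0.32). With array class as a covariate the difference was -0.99 ± 0.22 (limma adjusted p = 0.25), and in high-ratio arrays alone it was -0.72 ± 0.21 (limma adjusted p = 0.99). In untreated α7 +/T mice Dio2 averaged 8.27 ± 0.06 (SD, n = 5). Its highest value there, 8.344, lay just below the lowest untreated wild-type value, 8.346, so the 2 ranges nearly touched. The 2 ranges were apart, in either direction, for 4.75% of all probe sets. The difference was -0.69 ± 0.30 (limma adjusted p = 0.11), -0.34 ± 0.22 with array class as a covariate and -0.69 ± 0.21 in high-ratio arrays alone (limma adjusted p = 0.092). In seized mice Dio2 differed from wild-type by -0.23 ± 0.37 in α7 +/T and by -0.54 ± 0.38 in β4 -/- mice, and in high-ratio arrays alone by 0.31 ± 0.27 and 0.0037 ± 0.27. Ordered by mean, Dio2 was highest in untreated wild-type mice at 8.96, then seized wild-type at 8.75, seized α7 +/T at 8.52, untreated α7 +/T at 8.27, seized β4 -/- at 8.21 and untreated β4 -/- mice at 7.62. Each neighbouring pair in that order differed by less than the larger of its SDs.

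**Figure D2:**
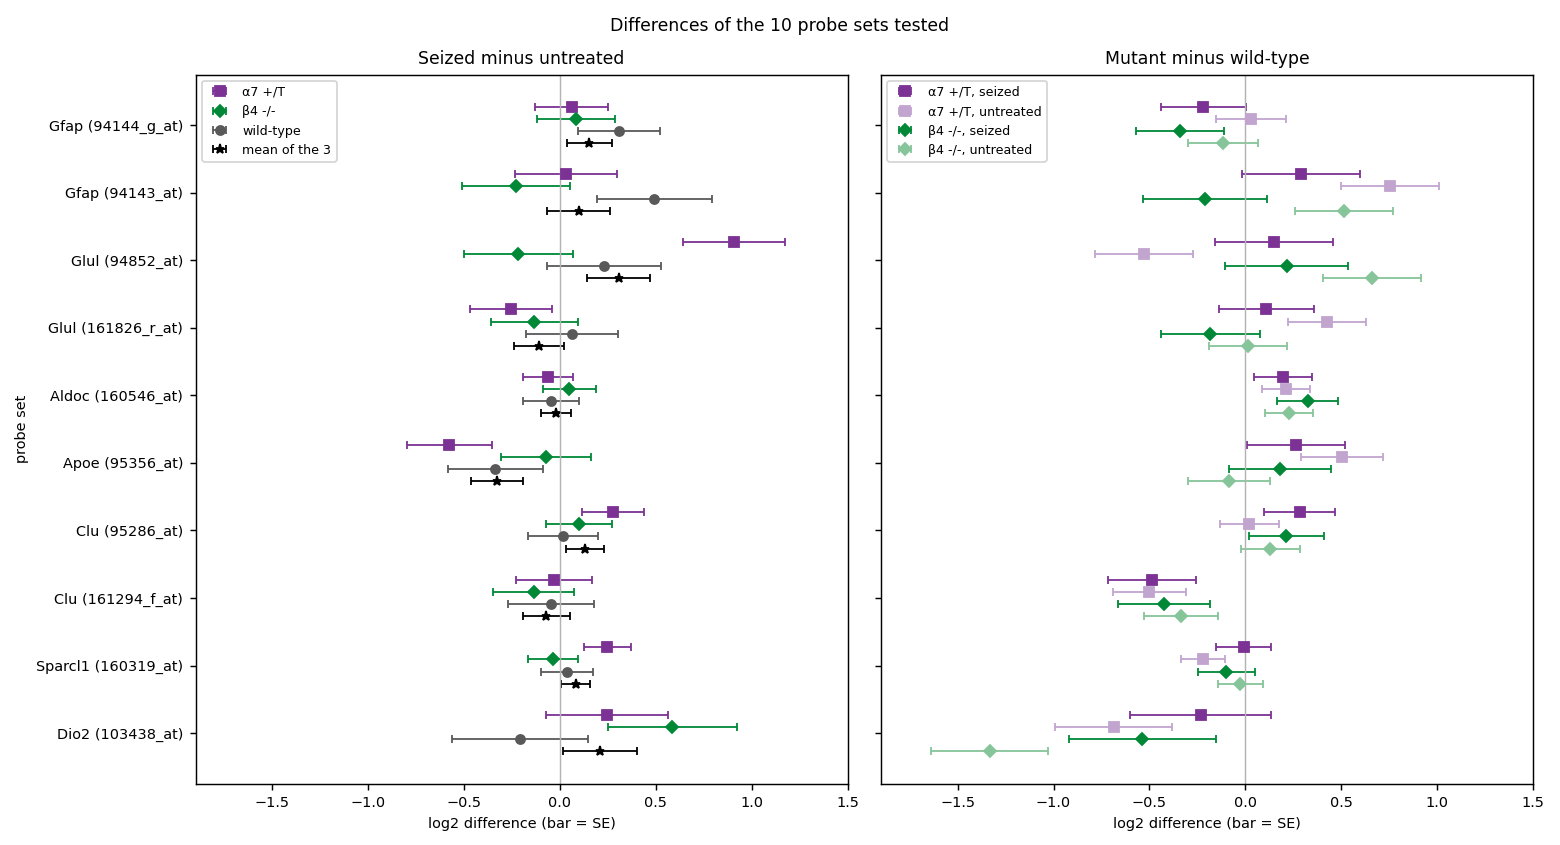
Log2 differences with SE for the 10 tested probe sets, seized minus untreated on the left and mutant minus wild-type on the right. The largest differences are those of Dio2 in untreated β4 -/- mice, -1.33, and of the brighter Glul set after seizure in α7 +/T mice, 0.91.

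The genes around Dio2 in thyroid hormone action were followed as a list of 24 genes of deiodination, transport, receptors and targets, of which 14 were measured. Over the 3 genotypes 0 rose and 0 fell after seizure, with a median of 0.0024. Klf9, a transcription factor induced by thyroid hormone and also by glucocorticoids, differed by 0.25 ± 0.071 (limma adjusted p = 0.17). Thra, a thyroid hormone receptor gene, differed by -0.19 ± 0.11, and Ttr, a thyroxine carrier made by the choroid plexus, by 0.093 ± 0.13. Nrgn, a thyroid-responsive neuronal gene, differed by -0.32 ± 0.18. In α7 +/T mice, where 2.8% of all probe sets passed, 1 gene of the list rose after seizure. It was Reln, which encodes the secreted protein reelin, higher by 0.67 ± 0.16 (limma adjusted p = 0.018). Of the 5 untreated α7 +/T mice 4 were 6 weeks old, and all seized α7 +/T mice were 8 weeks old. With age as a covariate 0.163% of all probe sets passed in that seizure comparison. Between untreated α7 +/T and wild-type mice, Hr, a corepressor gene that thyroid hormone induces, was higher by 1.07 ± 0.29, and Klf9 was lower, with a difference of -0.36 ± 0.11 (limma adjusted p = 0.021 and 0.032). With array class as a covariate, where 9.1% of all probe sets passed, 4.3% higher and 4.8% lower, the adjusted p of Klf9 was 0.054. Over all 5599 genes 436 were higher and 497 lower in untreated α7 +/T than in wild-type mice, and the calls of any list in this comparison are to be read against that. All α7 +/T mice have titles that begin with LT and all β4 -/- mice titles that begin with B4, while untreated wild-type mice have 3 of each, so the prefix, whose meaning the labels do not give, overlaps with genotype. Calls in this comparison fell to 1.39% of all probe sets with the prefix as a covariate and to 0.0408% in high-ratio arrays alone. Of 19 genes called there in the lists, 1 passed with the prefix as a covariate, the transcription factor gene Atf4, and 0 in high-ratio arrays alone. All 19 kept their sign in both. They were chosen for passing in this comparison and both fits use its mice again, so the kept signs are no separate support. Hr and Klf9 then had adjusted p of 0.060 and 0.14 with the prefix and 0.18 and 0.12 in high-ratio arrays (limma).

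A list for cAMP response was drawn up around the Dio2 promoter, and Dio2 itself did not pass in any seizure comparison. Of the list's 10 measured genes 3 rose over the 3 genotypes and 0 fell: Fos, the orphan nuclear receptor gene Nr4a1, by 1.49 ± 0.15, and the clock gene Per1, by 0.90 ± 0.19 (limma adjusted p = 0.029). These genes were already known to rise from earlier results of these data. Over all 5599 genes 22 rose and 5 fell. Among the 161 tested genes whose promoter window holds TGACGTCA, 2 rose and 0 fell, with a median of 0.026, and among all 4519 tested genes with a window 20 rose and 4 fell, with a median of 0.0073. The 2 genes were Errfi1, an inhibitor of the EGF receptor, higher by 0.78 ± 0.12, and Btg2, an antiproliferative early response gene, higher by 0.71 ± 0.15 (limma adjusted p = 6.2e-04 and 0.018). Their elements, in capitals, are shown beside that of Dio2 because the same 8 bases stand at different distances from the start in the genes that rose.
Dio2: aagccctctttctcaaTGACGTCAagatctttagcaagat
Errfi1: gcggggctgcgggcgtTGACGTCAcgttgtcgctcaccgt
Btg2: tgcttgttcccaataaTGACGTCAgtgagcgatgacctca
These 40-base stretches are chr12:90739110-90739149 on the minus strand, chr4:150855003-150855042 on the plus strand and chr1:134079298-134079337 on the minus strand of GRCm38.p6. The element begins 95 bases before the start in Dio2, 51 in Errfi1 and 166 in Btg2, and a match is a description of the sequence only.

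Glul encodes glutamine synthetase, the enzyme with which astrocytes turn glutamate and ammonia into glutamine. Its brighter probe set, with a median signal of 416, was 8.95, 8.56, 9.37, 8.33 and 8.71 in seized α7 +/T mice, against 7.65, 8.31, 7.24, 7.45 and 8.75 in untreated α7 +/T mice. It was 9.09, 9.00, 8.69 and 8.63 in seized β4 -/- mice, against 9.40, 9.48, 8.82, 8.76 and 8.88 in untreated β4 -/- mice. In wild-type mice it was 8.72, 8.67 and 8.52 after seizure, against a lowest value of 7.41, a median of 8.58 and a highest of 8.88 without treatment. All 5 seized α7 +/T mice lay above the untreated α7 +/T mean, and the ranges overlapped through the untreated mouse at 8.75.

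The difference in α7 +/T mice was 0.91 ± 0.27, a 1.87-fold higher mean after seizure, and did not pass (limma adjusted p = 0.060). It was 0.88 ± 0.26 with array class as a covariate (limma adjusted p = 0.027), where 13.3% of all probe sets passed, 7.8% higher and 5.51% lower. In low-ratio arrays it was 1.62 ± 0.21 (limma adjusted p = 0.0018), where 9.28% passed, and in high-ratio arrays 0.29 ± 0.33 (limma adjusted p = 0.69). The low-ratio value set 3 seized mice of 8 weeks against 2 untreated mice of 6 weeks, so age and seizure cannot be told apart there. Of the 5 untreated α7 +/T mice 4 were 6 weeks old, and the fifth, replicate 5, was 8 weeks old like the seized mice. Its Glul was 8.75, inside the seized range. Among mice of 7 weeks or older, where that mouse alone stands for untreated α7 +/T, the Glul difference was 0.031, and without that mouse the call in α7 +/T mice passed. The Glul difference was -0.22 ± 0.28 in β4 -/- mice and 0.23 ± 0.30 in wild-type mice. The dimmer probe set, with a median signal of 233, differed in the opposite direction in α7 +/T mice, by -0.25 ± 0.21, so the 2 probe sets of Glul disagreed there. With age in weeks as a covariate, alone or beside array class, the brighter Glul set did not pass in α7 +/T mice. The part of age in the α7 +/T value was not tested beyond these fits.

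Without treatment, the brighter Glul set averaged 7.88 ± 0.63 in α7 +/T mice and 8.41 ± 0.56 in wild-type mice (SD, n = 5 and 6), a difference of -0.53 ± 0.26 (limma adjusted p = 0.14), while the dimmer set differed by 0.43 ± 0.21 in the same comparison. In untreated β4 -/- mice the brighter set averaged 9.07 ± 0.34 and was above the wild-type mean in 5 of 5 mice, with a difference of 0.66 ± 0.26 (limma adjusted p = 0.37). By mean, the brighter set ran from untreated β4 -/- at 9.07 through seized β4 -/- at 8.85, seized α7 +/T at 8.79, seized wild-type at 8.64 and untreated wild-type at 8.41 to untreated α7 +/T mice at 7.88, and each neighbouring pair differed by less than the larger of its SDs. Of the 7 measured genes among 12 of the glutamate and glutamine cycle other than Glul, 0 rose and 0 fell over the 3 genotypes, with a median of 0.080. Without treatment 1 was lower in α7 +/T than in wild-type mice, Glud1, the mitochondrial enzyme that oxidises glutamate, with a difference of -0.45 ± 0.14 (limma adjusted p = 0.038). Of all probe sets 8.29% were lower in that comparison. For Glud1 the adjusted p was 0.072 with array class as a covariate and 0.052 with the title prefix.

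Apoe encodes apolipoprotein E, the main lipid carrier secreted by astrocytes, and its tested probe set was among the brightest of the arrays, at the 99.8th percentile. Apoe was 12.09, 12.57, 12.45, 12.22 and 11.73 in seized α7 +/T mice, against 13.04, 13.07, 12.80, 12.91 and 12.13 in untreated α7 +/T mice. It was 12.30, 12.31, 12.17 and 11.73 in seized β4 -/- mice, against 12.66, 12.26, 12.10, 12.20 and 11.77 in untreated β4 -/- mice. It was 12.35, 11.56 and 11.93 in seized wild-type mice, against a lowest value of 11.71, a median of 12.39 and a highest of 12.85 in untreated wild-type mice. In each genotype the highest untreated values belonged to the mice of 6 weeks.

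The seizure difference of Apoe was -0.58 ± 0.22 in α7 +/T mice (limma adjusted p = 0.14), -0.072 ± 0.23 in β4 -/- mice and -0.34 ± 0.25 in wild-type mice. It was -0.64 ± 0.20 in α7 +/T mice with array class as a covariate (limma adjusted p = 0.033). With both array class and age as covariates the α7 +/T difference did not pass. Over 18 settings it ran from -0.77 to 0.085, and its sign changed in 1. Among mice of 7 weeks or older the average over the 3 genotypes was 0.050 ± 0.15, against -0.33 ± 0.14 over all mice. By mean, Apoe ran from untreated α7 +/T at 12.79 through untreated wild-type at 12.29, seized α7 +/T at 12.21, untreated β4 -/- at 12.20 and seized β4 -/- at 12.13 to seized wild-type mice at 11.95, and each neighbouring pair after the top group differed by less than the larger of its SDs. Untreated α7 +/T mice exceeded untreated wild-type mice by 0.50 ± 0.21 (limma adjusted p = 0.093).

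Set by age, Apoe was 11.71 to 12.26 in the 8 untreated mice of 7 weeks or older, with a median of 12.11, against 12.53 to 13.07 in the 8 untreated mice of 6 weeks, with a median of 12.83. The ranges did not overlap, as held for 0.313% of all probe sets, and the separation held within each of the 3 genotypes. In α7 +/T mice it rested on 1 older mouse, at 12.13, and in β4 -/- mice on 1 mouse of 6 weeks, at 12.66. The 3 untreated wild-type mice of 6 weeks have titles beginning with LT and the 3 older ones with B4. Age and title prefix thus cannot be told apart in untreated wild-type mice. The 12 seized mice, of 7 or 8 weeks, had 11.56 to 12.57. This comparison was chosen after the values were seen. With age entered as 7 weeks or older against 6 weeks beside the 6 group means, Apoe was the only one of the 10 probe sets to pass, where 0.19% of all probe sets passed. Its difference was -0.71 ± 0.15, a level 1.64-fold lower in the older mice (limma adjusted p = 0.042). It was -0.65 ± 0.14 with array class as a further covariate (limma adjusted p = 0.037), where 0.503% passed. Of the 8 mice of 6 weeks 7 have titles beginning with LT, and with the title prefix as a covariate the difference was -0.57 ± 0.18 (limma adjusted p = 0.34). Leaving out each of the 28 mice in turn gave -0.78 to -0.67, and the call held in 13 of 28 cases. All seized mice were 7 weeks or older, so leaving out any of them could not move the estimate, which stayed at -0.71. Among the untreated mice left out, the call held only without wild-type replicate 4 or β4 -/- replicates 1, 2 or 5. The limma adjusted p was 0.27 without untreated α7 +/T replicate 5. As a slope over 6 to 9 weeks the difference was -0.21 ± 0.073 per week (limma adjusted p = 0.88), and 0 of the 10 probe sets and 0% of all passed, with 400 probe sets at an unadjusted p under 0.05. The brighter Glul set was 0.39 ± 0.23 higher in the older mice in the 2-class age fit (limma adjusted p = 0.38).

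**Figure D3:**
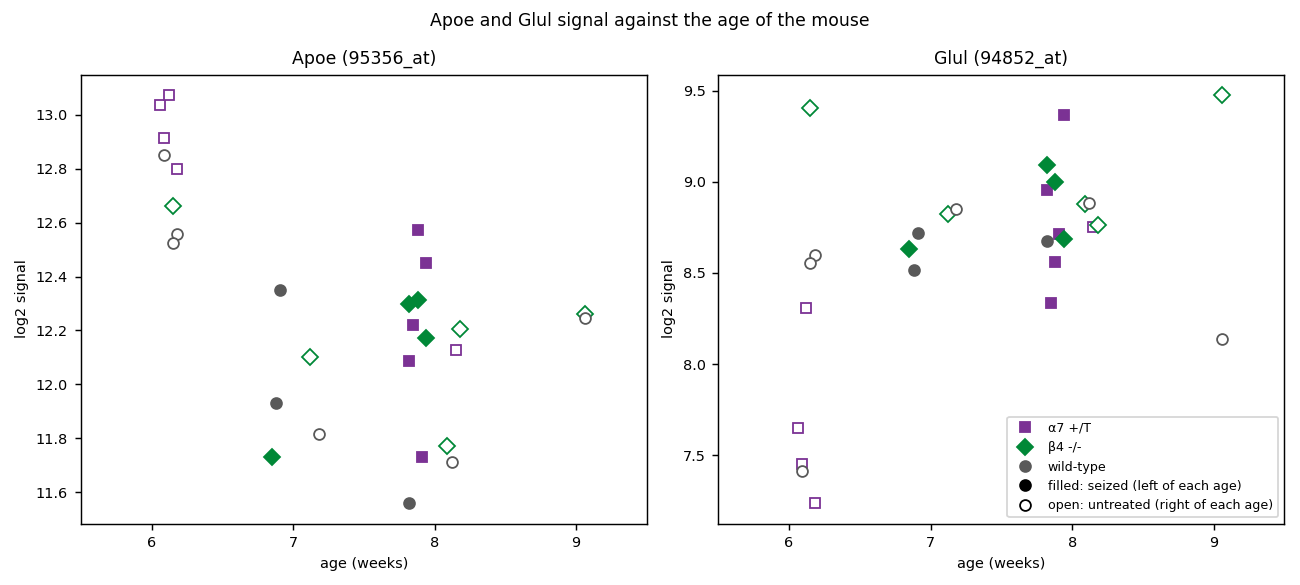
Log2 signal of Apoe and the brighter Glul set in each mouse against its age in weeks, with filled symbols for seized and open symbols for untreated mice and the shape and colour for genotype. The 8 mice of 6 weeks, all untreated, hold 12.53 to 13.07 for Apoe, above all other untreated mice, which hold 11.71 to 12.26.

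Among the 11 measured of 20 other apolipoproteins, lipid carriers and their receptors, 0 rose and 0 fell over the 3 genotypes, with a median of 0.069. Of these 11, in untreated α7 +/T mice 2 were higher and 1 lower than in wild-type mice. Abca1, which loads lipid onto apolipoproteins, had a difference of -0.95 ± 0.24, Lrp1, an Apoe receptor, of 0.63 ± 0.18 and Lcat, which esterifies cholesterol, of 0.57 ± 0.17 (limma adjusted p = 0.017, 0.025 and 0.032). For Lcat the adjusted p was 0.075 with array class as a covariate, and for the 3 genes it was 0.071, 0.065 and 0.060 with the title prefix. Across all probe sets 16% passed in that comparison without these covariates, 7.73% higher and 8.29% lower.

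Gfap encodes the intermediate filament of astrocytes, whose rise over days is the usual sign of a reactive astrocyte. It had 2 probe sets, the brighter with a median signal of 301 and the dimmer with a median of 55.2, above the array median in 18 of 28 arrays. Between untreated α7 +/T and wild-type mice 1 of the 10 probe sets passed, the dimmer Gfap set, where 16% of all probe sets did, so a count of this size is not particular to these genes. The dimmer Gfap set was 6.11, 5.59, 6.62, 7.03 and 5.34 in untreated α7 +/T mice, against a lowest value of 4.93, a median of 5.37 and a highest of 5.98 in untreated wild-type mice. The 2 highest α7 +/T values came from the 2 low-ratio arrays, and the 8-week mouse, at 5.34, lay among the wild-type values. The difference was 0.75 ± 0.26, or 1.69-fold higher (limma adjusted p = 0.045), and 0.30 ± 0.23 in high-ratio arrays alone (limma adjusted p = 0.49). The brighter set was 7.81 to 8.33 in untreated α7 +/T mice, against 7.77 to 8.49 in untreated wild-type mice, and differed by 0.031 ± 0.18 (limma adjusted p = 0.91). The dimmer set's difference was 0.50 ± 0.21 with array class as a covariate (limma adjusted p = 0.12) and 0.58 ± 0.29 with the title prefix (limma adjusted p = 0.21). With a mouse left out it ran from 0.53 to 0.95, and it did not pass in 12 of the 28 cases. Mice of the other groups do not enter this difference, so leaving them out changed only its estimated spread. Among the mice of the 2 compared groups, it passed only without untreated wild-type replicate 1 or untreated α7 +/T replicates 2 or 5.

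After seizure, the brighter set differed by 0.062 ± 0.19 in α7 +/T mice, 0.084 ± 0.20 in β4 -/- mice and 0.31 ± 0.21 in wild-type mice, and in high-ratio arrays alone by 0.37 ± 0.12 over the 3 genotypes (limma adjusted p = 0.34). Of 29 genes linked to reactive astrocytes 11 were measured, and 1 rose over the 3 genotypes, Ptgs2, the inducible cyclooxygenase, which active neurons also express, by 1.24 ± 0.28 (limma adjusted p = 0.039). Ptgs2 was dim, with a mean log2 signal of 4.36 over the 28 mice. Of the 7 measured genes for other intermediate filaments 0 rose and 0 fell.

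Clu encodes clusterin, a secreted chaperone that also carries lipid, and Sparcl1 encodes hevin, an astrocyte protein that promotes the formation of excitatory synapses. Clu had a brighter probe set, with a median signal of 1564, and a dimmer one of 1072. Over the 28 mice the brighter ranged from 9.87 to 11.17, the dimmer from 9.22 to 10.33 and Sparcl1 from 10.63 to 11.48. After seizure over the 3 genotypes the differences were 0.13 ± 0.099 for the brighter and -0.072 ± 0.12 for the dimmer Clu set, and 0.082 ± 0.075 for Sparcl1. Sparcl1 was 11.17, 11.13, 11.39, 11.27 and 11.48 in seized α7 +/T mice, against 11.31, 10.96, 10.63, 10.90 and 11.39 in untreated α7 +/T mice, a difference of 0.25 ± 0.12 (limma adjusted p = 0.28). With array class as a covariate it was 0.30 ± 0.097 (limma adjusted p = 0.041), and among mice of 7 weeks or older, where 1 mouse alone stands for untreated α7 +/T, -0.11. Without treatment, the dimmer Clu set of α7 +/T against wild-type mice differed by -0.50 ± 0.19 (limma adjusted p = 0.067), while the brighter differed by 0.022 ± 0.15. In seized mutants against seized wild-type mice 0 of the 10 probe sets passed in either genotype, where 0% and 0.0136% of all probe sets passed, with 882 and 325 of them at an unadjusted p under 0.05, and 1 of the 10 in each. The brighter Clu set lay above seized wild-type mice without overlap in seized α7 +/T mice, by 0.28 ± 0.19, and in seized β4 -/- mice, by 0.21 ± 0.20, where the ranges of 8.73% and 9.97% of all probe sets were apart (limma adjusted p = 0.48 and 0.78).

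Aldoc encodes aldolase C, the glycolytic enzyme that astrocytes and cerebellar Purkinje cells use, and its ranges overlapped between seized and untreated mice in each genotype. Aldoc was 11.53 to 12.07 in seized α7 +/T mice, against 11.54 to 12.18 in untreated α7 +/T mice. It was 11.81 to 12.08 in seized β4 -/- mice, against 11.83 to 12.11 in untreated β4 -/- mice, and 11.60 to 11.74 in seized wild-type mice, against 11.27 to 11.91 in untreated wild-type mice. Its difference after seizure over the 3 genotypes was -0.020 ± 0.080, with a 95% interval of -0.18 to 0.14. Seized β4 -/- mice lay above seized wild-type mice without overlap, by 0.33 ± 0.16, as did 9.97% of all probe sets in either direction (limma adjusted p = 0.76). Of 13 other measured glycolytic genes 0 rose and 0 fell, with a median of 0.070.

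Between the array classes, 6 of the 10 probe sets differed within groups, against 52.1% of all probe sets, of which 26.7% were higher and 25.4% lower in low-ratio arrays. Low-ratio arrays had lower Dio2, with a difference of -0.87 ± 0.16 (limma adjusted p = 5.2e-05), a lower value of the dimmer Clu set, -0.63 ± 0.079 (2.1e-07), lower Sparcl1, -0.25 ± 0.071 (0.0047), and a lower value of the brighter Gfap set, -0.33 ± 0.12 (0.026). They had a higher value of the dimmer Gfap set, by 0.64 ± 0.15 (9.4e-04), and a higher value of the brighter Clu set, by 0.28 ± 0.10 (0.025). The 2 probe sets of Gfap and the 2 of Clu thus moved in opposite directions between the classes. Wild-type mice had no low-ratio arrays, so the class differences come from the α7 +/T and β4 -/- mice. Apoe differed by 0.32 ± 0.15 and Aldoc by 0.19 ± 0.084 (adjusted p = 0.065 each), and the brighter Glul set by 0.13 ± 0.19 (0.60).

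**Figure D4:**
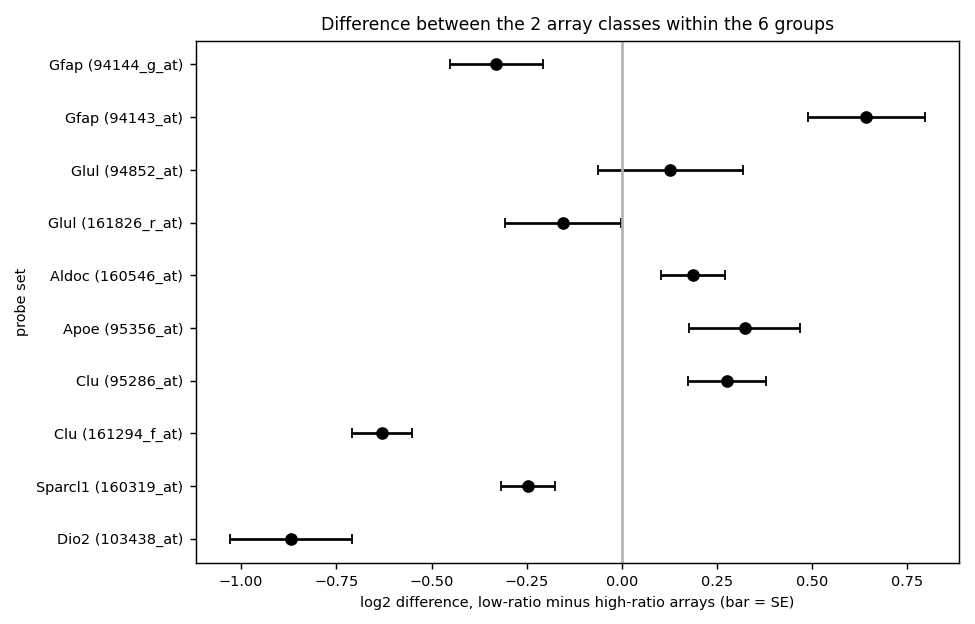
Log2 difference between low-ratio and high-ratio arrays beside the 6 group means, with SE, for the 10 tested probe sets. It rests on the α7 +/T and β4 -/- mice, since all wild-type mice had high-ratio arrays. Dio2 at -0.87 and the dimmer Clu set at -0.63 lie farthest below 0, and the dimmer Gfap set at 0.64 lies farthest above it.

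Among 22 measured genes of 34 other astrocyte markers, 0 rose and 1 fell over the 3 genotypes, with a median of 0.010. Id3, a negative regulator of differentiation found in astrocytes and endothelium, differed by -0.48 ± 0.11 (limma adjusted p = 0.039). It was known from earlier results. The summed signal of the 22 genes was 22962 to 31922 in seized α7 +/T mice, against 25398 to 32469 in untreated α7 +/T mice. It was 24831 to 34027 in seized β4 -/- mice, against 24619 to 33950 in untreated β4 -/- mice, and 32722 to 33174 in seized wild-type mice, against 30171 to 35571 in untreated wild-type mice. The sums were lower in some mutants than in any wild-type mouse, and the part of array class in this was not tested. Set against wild-type, untreated α7 +/T mice had 1 of the 22 higher and 2 lower: Gpr37l1, an astrocyte receptor, by 0.35 ± 0.12, Gja1, a connexin of gap junctions, with -0.58 ± 0.15, and Id4 with -0.74 ± 0.22. With array class as a covariate only Gja1 of these 3 passed (limma adjusted p = 0.021), and with the title prefix its adjusted p was 0.079. These counts lie near the 7.73% higher and 8.29% lower over all probe sets.

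Markers of other cell types were counted in the same way, where over all 5599 genes 22 rose and 5 fell after seizure over the 3 genotypes. After seizure over the 3 genotypes 0 of 13 neuron, 0 of 9 oligodendrocyte, 0 of 7 ependyma, tanycyte and choroid plexus and 0 of 8 meninges and blood genes passed. Of 10 endothelial and pericyte genes 2 fell, Sox18, a transcription factor of blood vessels, with -0.57 ± 0.10, and Eng, a vascular TGF-beta coreceptor, with -0.57 ± 0.12, and of 10 microglia genes Irf8 fell, with -0.57 ± 0.13 (limma adjusted p = 0.0049, 0.028 and 0.049). Of the 10 endothelial and pericyte genes 3 had differences above 0, up to 0.52. Irf8 was dim, with a mean log2 signal of 5.58. The list with the tanycyte markers thus gave no call, and its lowest marker, Rax, had group median signals of 5.87 to 10.6 in linear units.

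Females and males differed in 0 of the 10 probe sets, where 0.0544% of all passed, with 1 of the 10 and 895 of the 7350 at an unadjusted p under 0.05. That was the dimmer Clu set, 0.30 ± 0.11 higher in females (limma adjusted p = 0.30). The brighter Glul set had a difference of -0.31 ± 0.16, females minus males (limma adjusted p = 0.42).

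How the members varied together was read within each array class, each gene by its brightest probe set, over 42 correlations, 21 in each class. Over the 19 high-ratio arrays Glul and Apoe ran opposite, with Pearson's r = -0.71 (permutation p = 8.0e-04, adjusted 0.017) and Spearman's rho = -0.65 (permutation p = 0.0031, adjusted 0.083), 2-sided. Without the 2 mice farthest from the median of Glul, r was -0.54. Over the 9 low-ratio arrays it was r = -0.72 (exact permutation p = 0.029, adjusted 0.18) with rho = -0.50 (exact permutation p = 0.18), and 0.015 without 2 mice, so there the relation rested on those 2 mice. Clu and Sparcl1 had r = 0.75 in high-ratio arrays (permutation p = 6.0e-04, adjusted 0.017) with rho = 0.49 (permutation p = 0.035, adjusted 0.31), and r = 0.54 without 2 mice. Aldoc and Clu had r = 0.65 in high-ratio arrays (permutation p = 0.0033, adjusted 0.046) with rho = 0.59 (permutation p = 0.0094, adjusted 0.13), and r = 0.53 without 2 mice. Over the 9 low-ratio arrays r was 0.40 for Clu and Sparcl1 (exact permutation p = 0.28) and 0.16 for Aldoc and Clu (exact permutation p = 0.69). Without 2 mice these low-ratio values were -0.074 and -0.30. The mice of these correlations span the groups and ages, so shared group differences enter them. The permutations shuffled mice across groups and ages, so their p-values do not measure how the genes vary together within a group.

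The genes most like each member over the 19 high-ratio arrays were taken by Pearson's r. For Dio2 they were Fam117a, Jak2 and Rabggtb, with r of 0.76, 0.75 and 0.74, and over the 9 low-ratio arrays the same 3 had -0.096, -0.60 and -0.61. For Apoe they were Atp13a2, Bcan and Mrps24, with 0.94, 0.93 and 0.92, and 0.036, 0.60 and 0.35 in low-ratio arrays. Bcan encodes brevican, a proteoglycan of the brain's extracellular matrix. For Glul they were Mrpl13, Tmem131 and H2az1, with 0.84, 0.80 and 0.79, and 0.73, -0.078 and 0.46 in low-ratio arrays. For Aldoc the nearest was Ncam1, with 0.85, for Clu it was Thy1, with 0.95, for Sparcl1 it was Trappc5, with 0.85, and for Gfap it was C77080, with 0.75. In low-ratio arrays these 4 had 0.33, 0.54, 0.016 and 0.50. The likeness to Dio2 in high-ratio arrays did not carry over to the other class. This was not particular to Dio2, since Atp13a2 with Apoe, Tmem131 with Glul and Trappc5 with Sparcl1 also fell to near 0. Mrpl13 with Glul and Bcan with Apoe stayed at 0.73 and 0.60. All were picked for the highest r in high-ratio arrays, so a lower r in the other class is likely from the choice alone.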

How the data were processed

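RNA of the whole brain was measured in 28 mice, each on 1 array. The authors deposited a signal intensity for every probe set, computed in MAS5 according to the submitters' processing notes, where no version of it stands. It was taken to log2 here with no further scaling. Trimmed by 2% at each end, the mean was about 150 on each array, and medians ran from 43.6 to 61.1. The number of arrays limits the precision.

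Of 12488 probe sets, 66 controls were left out, and 7350 above their array's median in at least 3 arrays were tested. The platform annotation gave 1 symbol for 10833, several for 396, which were not named, and none for 1193. Promoters are RefSeq's, build GRCm38.p6.

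The 6 group means were fitted with limma 3.58.1 in R 4.3.3 (lmFit, eBayes with an intensity trend), with a Benjamini-Hochberg threshold of 0.05 across the 7350. Age, sex and array class (Gapdh log2 ratio under 0.5) were added as terms. Nothing in the labels says which mice shared a litter or a day, so p-values measure only the spread between these samples. All probe sets of the 7 genes were named. From each of 15 lists the genes that passed were named, up to 4, or the 2 of smallest p where none did, with Dio1, Dio3, Thra, Thrb, Ttr and Nrgn where measured, though not every such gene is printed. Of the list for SPARC-family genes, 0 of 4 measured passed after seizure over the 3 genotypes. Likeness took the 3 highest Pearson r, the nearest 1 being printed for 4 genes. The members and lists were chosen with earlier results of these data known, and the array classes and the split at 7 weeks after the values were seen. The fit was tested on simulated data. Permutation p-values used 100000 resamples, or all orders for 9 arrays. Alternatives were other scalings, filters, weights, covariates, subsets of arrays and ages, and each mouse left out.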

Additional observations from a re-analysis of the deposited data

Results flagged for a closer look

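In 3 of 50 groups of member values, 1 mouse lay apart from its group by Dixon's 95% criterion, and chance alone marks about 1 in 20 groups. The brighter Gfap set was 7.81 in untreated α7 +/T replicate 1, where the nearest other mouse was at 8.19 and the highest at 8.33. The dimmer Gfap set was 6.27 in seized β4 -/- replicate 1, a low-ratio array, where the nearest other mouse was at 5.54 and the lowest at 5.39. The dimmer Glul set was 8.15 in seized β4 -/- replicate 3, a high-ratio array, where the nearest other mouse was at 7.61 and the lowest at 7.51.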

How the results depend on the processing

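Over the settings tried, 1227 of 1370 member values kept their direction and side of the threshold, and so did 2171 of 2240 with a mouse left out. Of the 80 results behind these values, the only call was the dimmer Gfap set in untreated α7 +/T against wild-type mice. The other values that kept their side did so by staying uncalled, and the Gfap call passed in 5 of 17 settings. No called value changed sign, while 114 uncalled ones did under a setting. The count of members called after seizure over the 3 genotypes was 0, and 1 (Glul) with array weights, where 8.78% of all probe sets passed. After seizure in α7 +/T mice it was 0, and 1 (Glul in each) with quantile normalization, array weights, sex as a covariate or low-ratio arrays only, where 4.04%, 2.11%, 3.46% and 9.28% of all probe sets passed, and 3 (Glul, Apoe and Sparcl1) with array class as a covariate, where 13.3% did. With array class and age together as covariates none of these 3 passed, where 1.14% of all probe sets did. With a mouse left out the count ran from 0 to 2, the 2 being Glul and Apoe without untreated α7 +/T replicate 5. Glul alone passed without seized α7 +/T replicate 4 or untreated wild-type replicate 2. In untreated α7 +/T against wild-type mice it was 1. It was 0 with quantile normalization, no filter, sex, age, title prefix, array class, or array class and age as covariates, high-ratio arrays only, and mice of 7 weeks or older with or without array class. It was 2 with median centring (Glul and Clu), where 19.6% of all probe sets passed, and with the compared groups alone (Clu and Dio2), where 7.32% did. Median centring moved the median of all probe sets in that comparison by -0.24 on the log2 scale. With a mouse left out the count ran from 0 to 5, the 5 being Gfap, Glul, Apoe, Clu and Sparcl1 without untreated α7 +/T replicate 5. It was 2 without untreated wild-type replicate 2 (Glul and Apoe) or untreated β4 -/- replicate 2 (Gfap and Clu), and the Gfap call was lost without untreated wild-type replicates 2 to 6, any seized wild-type mouse, untreated α7 +/T replicates 1, 3 and 4 or untreated β4 -/- replicate 4. With array weights, seized α7 +/T against wild-type mice gave 1 (Clu) and seized β4 -/- against wild-type mice 4 (Gfap, Aldoc, Clu and Dio2), where 13.7% and 27.2% of all probe sets passed. The count for 7 weeks or older against 6 weeks, added after seeing the data, was 1, 0 with the title prefix as a covariate, and 0 to 1 with a mouse left out. Its Apoe call was lost without untreated wild-type replicates 1, 2, 3, 5 and 6, seized wild-type replicate 3, any untreated α7 +/T mouse, untreated β4 -/- replicates 3 and 4 or seized β4 -/- replicates 2 and 3. The cause of these changes was not tested. In the other 7 comparisons with mice left out, the count stayed at 0. Low-ratio arrays hold no wild-type mice, so only the α7 +/T and β4 -/- seizure differences were fitted in them. The compared groups alone could not be run for comparisons that use all groups. No paired analysis was possible because the labels give no replicate numbers and nothing ties a mouse of 1 group to a mouse of another. Signal near background limits the dimmer Gfap set, with a mean log2 signal of 5.84, and among the called genes Ptgs2 at 4.36 and Irf8 at 5.58, beside the untested Apoe set.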

Other observations

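The untested dim probe set of Apoe had log2 group means of 1.96 ± 0.81 in seized and 3.27 ± 1.24 in untreated α7 +/T mice (SD, n = 5 each), and is given only as a value.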
